A study of Homo sapiens with 9 samples.

Results

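The genes described here encode collagens, laminins, integrins and lysyl oxidases, which together build, bind and crosslink the extracellular matrix. They were found by gene symbol in the authors' table of normalized counts: COL, a number, A and a number for collagens, LAMA, LAMB or LAMC and a digit for laminins, ITGA or ITGB and a suffix for integrins, and LOX or LOXL for lysyl oxidases. Of the 17518 genes of the table, 65 matched: 30 collagen chains, 10 laminin chains, 20 genes with an integrin symbol and 5 lysyl oxidases. The integrin pattern took in 15 subunits and 5 genes that are not subunits, namely ITGB1BP1, ITGB1BP2 and ITGB3BP, whose products bind integrin tails, ITGBL1, a secreted protein related to beta subunits, and ITGB1P1, a pseudogene.

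Collagens are secreted as triple helices of 3 chains and assemble into fibrils, networks or filaments, and some span the membrane. Laminins are trimers of an alpha, a beta and a gamma chain that polymerise into the sheet of the basement membrane. Integrins are pairs of an alpha and a beta subunit that sit in the plasma membrane and tie these matrix proteins to the actin cytoskeleton. Lysyl oxidases are copper enzymes that oxidise lysines of collagen and elastin so that the fibres become crosslinked. Small cell lung cancer grows in close contact with a matrix rich in collagen, laminin and fibronectin, and integrin beta1 is a main receptor for it.

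The cells were COR-L279, an established human small cell lung cancer line of the SCLC-N subtype, the subtype defined by the transcription factor NEUROD1, with a wild-type genotype per the labels. Total RNA was sequenced after 24 h in DMSO, the vehicle, in 0.5 µM JQ1 or in 1.5 µM JQ1, with 3 libraries in each of the 3 groups. JQ1 displaces the BET bromodomain proteins, which recruit elongation factors, from acetylated chromatin. The study has a single cell line, so the values describe that line. The libraries are called biological replicates in the labels. Nothing in the labels says whether they came from separate cultures, so p-values measure the spread between these libraries.

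The libraries held between 60721187 and 88482001 reads in genes. Neuroendocrine markers (6 of 6 found) summed to 1270 to 1350 FPKM (fragments per kilobase of transcript and library size) in every library, and each library expressed epithelial markers. Endothelial markers summed to at most 0.07 FPKM over the 3 of 4 that were found, and leukocyte markers to at most 0.51 FPKM. In replicate 3 of 0.5 µM and in replicates 1 and 2 of 1.5 µM, which are 3 of the 6 JQ1 libraries, the imprinted noncoding RNA H19 stood at 1563, 2071 and 1476 normalized counts, against at most 82.8 in the other libraries. These 3 libraries are called the H19-high libraries below, and results that rest on them are given with and without them. Bulk RNA cannot tell fewer cells of a kind from less RNA per cell.

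Stretches of the promoters of LOXL4, COL17A1, LAMC1 and ITGB5 are shown first. They stand for the lysyl oxidase and the collagen with the largest decreases at 1.5 µM, the laminin chain that rose, and an integrin subunit that rose at both doses and again between them. The sequences are RefSeq's for GRCh38.p14, read 5′ to 3′ along the gene's strand within the 250 bases before the start, and without any annotated exon. Capitals mark GC boxes (GGGCGG or its reverse complement, the letters bound by SP1-family factors) and, in COL17A1, a TATAAA box.
LOXL4, chr10:98268251-98268444, minus strand: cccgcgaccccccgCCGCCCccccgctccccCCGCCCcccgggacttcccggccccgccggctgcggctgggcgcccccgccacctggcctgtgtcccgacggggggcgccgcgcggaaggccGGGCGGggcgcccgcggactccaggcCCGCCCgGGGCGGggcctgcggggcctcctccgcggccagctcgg
COL17A1, chr10:104085958-104086130, minus strand: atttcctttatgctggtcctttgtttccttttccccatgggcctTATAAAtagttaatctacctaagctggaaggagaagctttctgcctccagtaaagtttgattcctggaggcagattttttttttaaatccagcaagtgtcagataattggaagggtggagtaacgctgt
LAMC1, chr1:183023170-183023419, plus strand: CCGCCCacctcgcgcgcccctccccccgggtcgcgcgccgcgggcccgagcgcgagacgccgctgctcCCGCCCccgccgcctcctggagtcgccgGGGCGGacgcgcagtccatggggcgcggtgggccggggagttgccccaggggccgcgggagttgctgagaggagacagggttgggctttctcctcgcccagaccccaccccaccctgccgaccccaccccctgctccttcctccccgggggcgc
ITGB5, chr3:124901419-124901668, minus strand: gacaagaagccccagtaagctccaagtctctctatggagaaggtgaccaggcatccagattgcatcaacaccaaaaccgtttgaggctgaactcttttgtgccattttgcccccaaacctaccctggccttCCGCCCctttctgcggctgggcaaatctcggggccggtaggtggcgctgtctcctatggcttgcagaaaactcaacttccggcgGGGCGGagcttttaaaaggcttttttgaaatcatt

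The LOXL4 stretch has a GC content of 88.1% and holds 5 GC boxes, the LAMC1 stretch 79.6% and 3 GC boxes, and the ITGB5 stretch 52.8% and 2 GC boxes. The COL17A1 stretch has a GC content of 40.5%, no GC box and 1 TATAAA box. Of the 65 genes, 47 had a promoter in the RefSeq table, 43 of them encoding chains, subunits or enzymes. Over the 250 bases before the start, searched on both strands, a GC box was in 15 of 29 promoters of genes that were lower at 1.5 µM and in 4 of 7 of those that were higher, against 42.6% of 35116 promoters. A TATAAA box was in 1 of 29 and 2 of 7, against 10.7% of all promoters. CACGTG, the E-box bound by MYC, was in 0 of 29 and 1 of 7 (ITGA6), against 6.34%. CAGATG or CAGCTG, E-boxes of the kind bound by NEUROD1, were in 4 of 29 and 2 of 7, against 24.3%. These are counts of letters in a window and show no binding.

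JQ1 lowered most genes of these families. At 0.5 µM, 41 of 65 were lower than in DMSO, 10 were higher and 14 did not pass the test (limma on log2(normalized count + 1), Benjamini-Hochberg adjusted p under 0.05 over all 17514 tested genes). Among all tested genes 70.0% passed at this dose, 35.3% higher and 34.7% lower, so 63.1% of the matrix genes lower stands beside 34.7%. The median log2 fold change of the 65 was -0.64, beside -0.01 for all tested genes. At 1.5 µM, 42 were lower (64.6%), 10 higher and 13 did not pass, with a median of -0.81. Among all genes 73.1% passed there, 36.9% higher and 36.2% lower. The comparisons with DMSO share the same 3 DMSO libraries, so the doses are not independent of each other.

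The decreases were also large. A fall of at least 2-fold was called for 23 of 65 genes at 0.5 µM (35.4%) and for 26 at 1.5 µM (40%), beside 10.1% and 11.8% of all genes. A rise of at least 2-fold was called for 4 genes at 0.5 µM and 5 at 1.5 µM, beside 4.82% and 7.05% of all genes. The 3 JQ1 libraries lay wholly above or below the 3 DMSO libraries for 53 genes at 0.5 µM and 56 at 1.5 µM, beside 72.6% and 81.7% of all genes. Of the 65 genes, 51 passed in the same direction at both doses, COL9A2 passed at 1.5 µM and not at 0.5 µM, and 13 passed at neither. No gene was called in opposite directions.

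**Figure D1:**
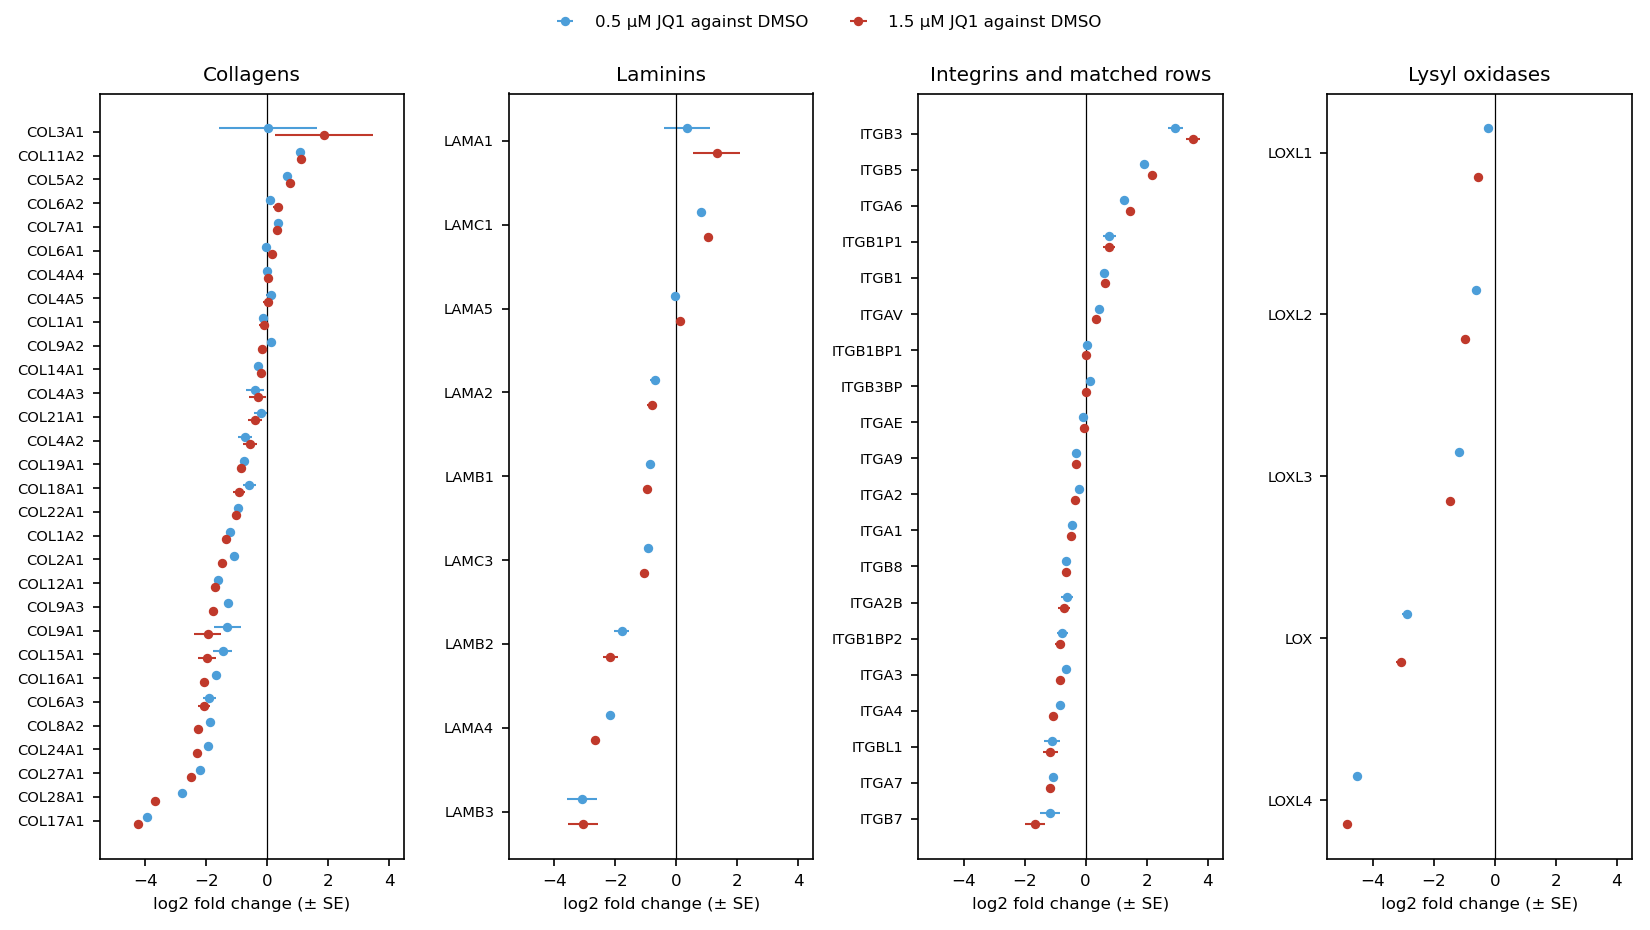
The log2 fold change against DMSO (horizontal axis, ± SE from limma) is plotted for 64 of the 65 genes, by family, with 0.5 µM JQ1 in blue and 1.5 µM in red. All 5 lysyl oxidases lie left of 0, ITGB3 and ITGB5 lie farthest right among the genes called, and COL3A1 and LAMA1 have the widest errors among those right of 0 at 1.5 µM.

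All 5 lysyl oxidases fell at both doses, where 34.7% and 36.2% of all tested genes were lower. Their median log2 fold changes were -1.19 at 0.5 µM and -1.48 at 1.5 µM, beside -0.01 and -0.003 for all tested genes. LOXL4 (ENSG00000138131.3) had the largest decrease of the 65 genes. It held 2959, 2990 and 2956 normalized counts in DMSO, 116, 129 and 140 at 0.5 µM, and 82.5, 114 and 110 at 1.5 µM. All JQ1 libraries were far below all DMSO libraries, by 23.1-fold and 29.1-fold in the means, and the 1.5 µM libraries lay just below the 0.5 µM libraries. The log2 fold changes were -4.52 ± 0.12 (SE, limma adjusted p = 1.23e-09) and -4.86 ± 0.12 (adjusted p = 2.78e-10). LOX (ENSG00000113083.8), the founding enzyme of the family, held 784, 758 and 803 normalized counts in DMSO, 130, 78.6 and 112 at 0.5 µM, and 100, 90.5 and 82.1 at 1.5 µM. It fell 7.33-fold and 8.6-fold, and its dose groups overlapped.

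The other lysyl oxidases fell by less and stepped down with the dose. LOXL3 (ENSG00000115318.7), which at 22.5 ± 0.991 FPKM (SD, n = 3) had the highest level per length of the family in DMSO, went from 3216 normalized counts to 1414 and 1152 in the group means. Its libraries held 3305, 3208 and 3133 in DMSO, 1365, 1501 and 1375 at 0.5 µM, and 1109, 1175 and 1172 at 1.5 µM, with no overlap between any of the groups. LOXL2 (ENSG00000134013.11) held 2142, 2030 and 2067 in DMSO, 1312, 1372 and 1343 at 0.5 µM, and 1013, 1079 and 1049 at 1.5 µM. LOXL2 is known for oxidising type IV collagen and for roles in tumour invasion, and its groups did not overlap either. LOXL1 (ENSG00000129038.11), linked to elastic fibres, moved least, from 1415, 1327 and 1426 in DMSO to 1235, 1128 and 1195 and then to 942, 886 and 973. Its log2 fold change was -0.23 ± 0.055 at 0.5 µM and -0.57 ± 0.055 at 1.5 µM.

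Between the doses, LOXL1, LOXL2 and LOXL3 were lower at 1.5 µM by log2 fold changes of -0.35 ± 0.055, -0.36 ± 0.042 and -0.29 ± 0.048 (SE; limma adjusted p = 0.00361, 0.000849 and 0.00424). LOX and LOXL4 had -0.20 ± 0.16 and -0.34 ± 0.12 and did not pass. Summed over the 5 enzymes, the level per length was 63.5 ± 2.62 FPKM in DMSO (SD, n = 3), 28.7 ± 1.21 at 0.5 µM and 22.6 ± 0.713 at 1.5 µM. In the annotation at hand, which is of another build than the authors' hg19, LOXL3 shares exonic bases with HTRA2 and DOK1 on the other strand and LOXL2 with ENTPD4 on the same strand. No source names the strand setting used for counting, so these counts are uncertain to that extent. For the same reason of builds no gene positions are given beyond the promoter stretches.

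**Figure D2:**
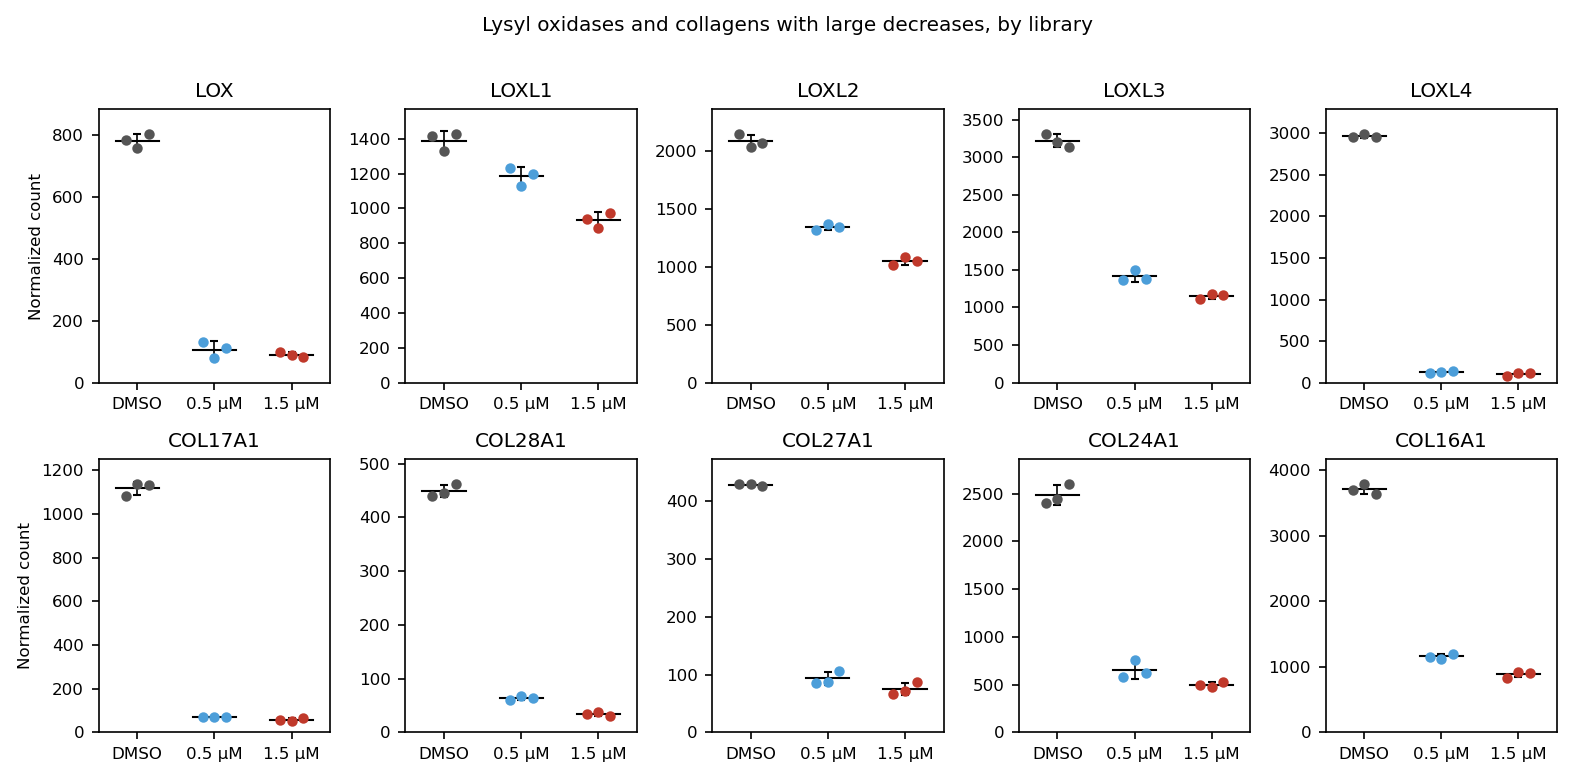
Normalized counts (vertical axes, each from 0) of the 5 lysyl oxidases and of 5 collagens with large decreases in DMSO, 0.5 µM and 1.5 µM JQ1; points are libraries, lines the group mean and bars ± 1 SD (n = 3). All JQ1 libraries lie below all DMSO libraries in each panel, and LOXL1, LOXL2 and LOXL3 step down again from 0.5 to 1.5 µM.

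Among the 30 collagen chains, 18 were lower and 3 higher at 0.5 µM, and 19 were lower and 3 higher at 1.5 µM, with medians of -0.74 and -0.88. The share lower was 60% and 63.3%, beside 34.7% and 36.2% of all genes. The share higher was 10% at each dose, beside 35.3% and 36.9%. In either direction 70% and 73.3% passed, close to the 70.0% and 73.1% of all genes. The largest falls were in COL17A1 and COL28A1, which do not form the classical fibrils. COL17A1 (ENSG00000065618.12) encodes a transmembrane collagen of the hemidesmosome, the junction that anchors basal epithelial cells to the basement membrane. It held 1083, 1137 and 1131 normalized counts in DMSO, 72.6, 71.6 and 71 at 0.5 µM, and 54.6, 53.2 and 67.7 at 1.5 µM. The fall was 15.6-fold and 19.1-fold in the means, with log2 fold changes of -3.94 ± 0.11 and -4.24 ± 0.11 (SE, limma adjusted p = 1.36e-09 and 3.39e-10).

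Of 4 listed markers of basal epithelium, TP63 and KRT15 were expressed and moved in the same direction as COL17A1. TP63, the transcription factor of basal epithelial cells, went from a mean of 613 normalized counts in DMSO to 30.3 and 22.6, and the keratin KRT15 from 889 to 64.4 and 25.7. The basal markers TP63, KRT5, KRT14 and KRT15 together summed to 10.2 to 11.4 FPKM in DMSO, 0.56 to 0.8 at 0.5 µM and 0.32 to 0.56 at 1.5 µM. KRT14 was listed at 0 in every library and KRT5 at 0.07 FPKM or less, so the fall of the sum is that of TP63 and KRT15. The part of this shift in the fall of COL17A1 was not tested. Epithelial markers (EPCAM, KRT8, KRT18, CDH1) summed to 594 to 607 FPKM in DMSO, 422 to 444 at 0.5 µM and 377 to 403 at 1.5 µM. Among 5 tested genes of the hemidesmosome and basal epithelium list, TP63 and KRT15 were lower at both doses, and PLEC and DST, which encode the linker proteins plectin and dystonin, passed as higher at 1.5 µM and not at 0.5 µM, with log2 fold changes of 0.24 and 0.23 at the higher dose.

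COL28A1 (ENSG00000215018.5), a collagen of the beaded-filament kind best known from the nervous system, held 440, 446 and 462 normalized counts in DMSO, 61.2, 68.1 and 64.2 at 0.5 µM, and 35, 37.3 and 30.8 at 1.5 µM. No groups overlapped, and the fall grew from 6.96-fold to 13.1-fold. COL27A1 (ENSG00000196739.10) and COL24A1 (ENSG00000171502.10) encode fibrillar collagens of the more divergent branch, known from cartilage and bone. COL27A1 held 430, 430 and 426 in DMSO, 85.1, 88 and 107 at 0.5 µM, and 66, 71.9 and 87.2 at 1.5 µM. COL24A1 held 2403, 2449 and 2601 in DMSO, 581, 754 and 617 at 0.5 µM, and 493, 471 and 533 at 1.5 µM. Both lay far below DMSO at both doses. Their log2 fold changes at 1.5 µM were -2.51 ± 0.13 and -2.31 ± 0.091.

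The fibrillar class, 8 chains here, had 4 lower (50%) and 2 higher (25%) at each dose. Of all genes, 34.7% and 36.2% were lower and 35.3% and 36.9% higher. COL1A2 (ENSG00000164692.13), a chain of type I collagen, was among the 3 collagens with the highest level per length in DMSO, 15.2 ± 0.504 FPKM (SD, n = 3). It held 3921, 3972 and 3924 normalized counts in DMSO, 1662, 1540 and 1873 at 0.5 µM, and 1680, 1593 and 1344 at 1.5 µM, a fall of 2.33-fold and 2.56-fold. Its partner COL1A1, of which a type I molecule usually carries more than of COL1A2, was at only 0.393 ± 0.133 FPKM in DMSO and had log2 fold changes of -0.14 ± 0.14 and -0.11 ± 0.14 that did not pass. The ratio of COL1A2 to COL1A1 in FPKM was 31.9 to 61.1 in the DMSO libraries and 11.4 to 22.2 over the 1.5 µM libraries. COL2A1, the cartilage collagen, went from 499, 520 and 518 normalized counts to 250, 222 and 260 and then to 175, 199 and 182, without overlap between the groups.

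The 2 fibrillar chains that rose were COL11A2 and COL5A2, both minor chains that regulate fibril diameter. COL11A2 (ENSG00000204248.6) held 67.9, 56 and 63 normalized counts in DMSO, 114, 154 and 133 at 0.5 µM, and 144, 133 and 132 at 1.5 µM, a log2 fold change of 1.08 ± 0.14 and 1.12 ± 0.14. COL5A2 (ENSG00000204262.7) held 200, 251 and 262 in DMSO, 338, 346 and 444 at 0.5 µM, and 408, 421 and 376 at 1.5 µM. For both, every JQ1 library was above every DMSO library. On FPKM values COL5A2 had 0.45 at 0.5 µM and did not pass (limma adjusted p = 0.0505). The genes of their partner chains, COL11A1 and COL5A1, were outside the table of normalized counts, with at most 0.03 and 0.06 FPKM in any library.

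COL7A1 (ENSG00000114270.11), the anchoring-fibril collagen of the skin's basement membrane, was the other collagen called higher. It held 144, 184 and 146 normalized counts in DMSO, 194, 208 and 204 at 0.5 µM, and 211, 195 and 192 at 1.5 µM, so every JQ1 library was above every DMSO library. Its log2 fold changes were 0.36 ± 0.11 and 0.34 ± 0.11 (SE, limma adjusted p = 0.0142 and 0.0172), but on FPKM values they were -0.01 and -0.09. Leaving out DMSO replicate 1 or 3 ended the call at both doses (adjusted p = 0.0566 and 0.0547 at 0.5 µM, 0.0668 and 0.0645 at 1.5 µM), and so did leaving out 1.5 µM replicate 1 at 1.5 µM (0.0609). Without the H19-high libraries COL7A1 did not pass either, with 0.35 and 0.29 (limma adjusted p = 0.0773 and 0.23).

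Of the 9 collagens that bind to fibril surfaces or are related to these, 7 were lower at 0.5 µM and 8 at 1.5 µM. That is 77.8% and 88.9%, beside 34.7% and 36.2% of all genes. COL9A2 was called at 1.5 µM only, and that call depended on every DMSO and 1.5 µM library, as given below. COL16A1 (ENSG00000084636.13) held 3696, 3785 and 3640 normalized counts in DMSO, 1154, 1118 and 1202 at 0.5 µM, and 836, 919 and 913 at 1.5 µM, with no overlap between any groups. It was at 17.3 ± 1.06 FPKM in DMSO (SD, n = 3) and fell 3.2-fold and 4.17-fold. COL12A1 fell from a mean of 2672 to 869 and 823 normalized counts, COL22A1 from 2360 to 1221 and 1165, and COL19A1 from 3527 to 2075 and 1950. COL14A1 moved little, with 4565, 3690 and 3979 in the group means and log2 fold changes of -0.31 ± 0.041 and -0.20 ± 0.041. COL21A1, with means of 52.5, 45.1 and 39.4, did not pass at either dose. The basement membrane collagens COL15A1 and COL18A1, whose ends are cleaved to fragments that restrain vessel growth, fell from 77.8 to 28 and 19.9 and from 125 to 83.8 and 66.5 normalized counts. The call of COL18A1 at 0.5 µM ended without DMSO replicate 1 or 0.5 µM replicate 3 (limma adjusted p = 0.102 and 0.0913). COL18A1 shares exonic bases with SLC19A1 on the other strand, which had a mean of 2411 normalized counts, so its counts are uncertain.

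Type IX collagen, built from COL9A1, COL9A2 and COL9A3, did not move as a unit. COL9A2 (ENSG00000049089.9), the collagen with the highest level per length in DMSO at 19.8 ± 0.634 FPKM, held 3187, 3166 and 3148 normalized counts in DMSO, 3268, 3969 and 3301 at 0.5 µM, and 2821, 2779 and 2798 at 1.5 µM. All 3 libraries at 1.5 µM were below DMSO and all 3 at 0.5 µM above, with log2 fold changes of 0.14 ± 0.064 (limma adjusted p = 0.0676) and -0.18 ± 0.064 (adjusted p = 0.0278). Leaving out any of DMSO replicates 1 to 3 or 1.5 µM replicates 1 to 3 ended the latter call, with adjusted p-values of 0.0569 to 0.0711. COL9A3 (ENSG00000092758.11) fell, from 345, 316 and 293 in DMSO to 118, 137 and 136 at 0.5 µM and 110, 93.2 and 78 at 1.5 µM. COL9A3 shares exonic bases with TCFL5 on the other strand, which had a mean of 2205, so its counts are uncertain. COL9A1 held 64.9 to 71 in DMSO, 20.3 to 31.7 at 0.5 µM and 7.1 to 28.9 at 1.5 µM, with log2 fold changes of -1.31 ± 0.44 and -1.95 ± 0.44. Its call at 0.5 µM ended without DMSO replicate 1 or 2 or 0.5 µM replicate 3 (adjusted p = 0.0552, 0.0544 and 0.066).

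Of the 5 network collagens, COL8A2 and COL4A2 were lower at both doses and 3 type IV chains did not pass. The share lower, 40%, was near that of all genes (34.7% and 36.2%). Among the type IV chains, COL4A4 and COL4A5 had group means of 225 to 231 and 168 to 187 normalized counts, with log2 fold changes between -0.01 and 0.14, none of which passed. COL4A2 had 56.4 in DMSO and 34.4 and 38.4 with JQ1. Its log2 fold changes were -0.72 ± 0.22 and -0.56 ± 0.22 (SE; limma adjusted p = 0.0144 and 0.0414). The call at 1.5 µM ended without DMSO replicate 1, 2 or 3 or 1.5 µM replicate 2 or 3 (adjusted p = 0.0864 to 0.13). COL4A1, the usual partner of COL4A2, was outside the table with at most 0.06 FPKM. COL4A3 (means of 25.2 to 32.9) did not pass either. COL8A2, a network collagen of the corneal endothelium, fell from 490 to 133 and 101 normalized counts.

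Type VI collagen, which forms beaded filaments around cells, is built from COL6A1, COL6A2 and COL6A3. COL6A3 held 416, 432 and 485 normalized counts in DMSO, 106, 104 and 148 at 0.5 µM, and 148, 98.5 and 79 at 1.5 µM, with log2 fold changes of -1.90 ± 0.21 and -2.07 ± 0.21. COL6A1 had means of 340, 335 and 380, and COL6A2 of 62.9, 68.2 and 81.6. Neither passed at either dose (limma adjusted p = 0.767 and 0.06 for COL6A1, 0.537 and 0.0593 for COL6A2). Summed over the 30 collagen chains, the level per length was 118 ± 1.73 FPKM in DMSO (SD, n = 3), 65.3 ± 3.98 at 0.5 µM and 57.6 ± 2.91 at 1.5 µM.

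Laminin chains moved in both directions, and the chains of a single trimer parted. Of 10 chains, 7 were lower (70%) and 1 higher (10%) at each dose, with medians of -0.91 and -1.02. Of all genes, 34.7% and 36.2% were lower and 35.3% and 36.9% higher. LAMC1 (ENSG00000135862.5), the gamma chain of most laminins, rose. It held 9204, 10132 and 10613 normalized counts in DMSO, 17608, 17155 and 18023 at 0.5 µM, and 20219, 20532 and 20196 at 1.5 µM. No groups overlapped, and its log2 fold changes were 0.82 ± 0.047 and 1.03 ± 0.047 (SE, limma adjusted p = 1.01e-07 and 1.23e-08).

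LAMB1 (ENSG00000091136.9), the beta chain that pairs with LAMC1, fell. It held 10351, 10763 and 11081 normalized counts in DMSO, 5806, 5980 and 5832 at 0.5 µM, and 5627, 5580 and 5323 at 1.5 µM, a fall of 1.83-fold and 1.95-fold. LAMA5 (ENSG00000130702.9), an alpha chain found with both, held 3643, 3786 and 3996 in DMSO, 3885, 3340 and 3957 at 0.5 µM, and 4176, 4088 and 4078 at 1.5 µM. Its log2 fold changes were -0.03 ± 0.061 and 0.11 ± 0.061 and did not pass, and on FPKM values the latter was -0.25. In FPKM, LAMB1 was the most abundant chain in DMSO (41.1 ± 1.55; SD, n = 3) with LAMC1 at 23.1 ± 1.77, and LAMC1 the most abundant at 1.5 µM (47.7) with LAMB1 at 19.2. The ratio of LAMC1 to LAMB1 in FPKM was 0.541 to 0.585 in the DMSO libraries, 2.03 to 2.19 at 0.5 µM and 2.42 to 2.61 at 1.5 µM, with no overlap. LAMB1 shares exonic bases with DLD and LAMA5 with ADRM1 on the other strand, in the annotation at hand.

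**Figure D3:**
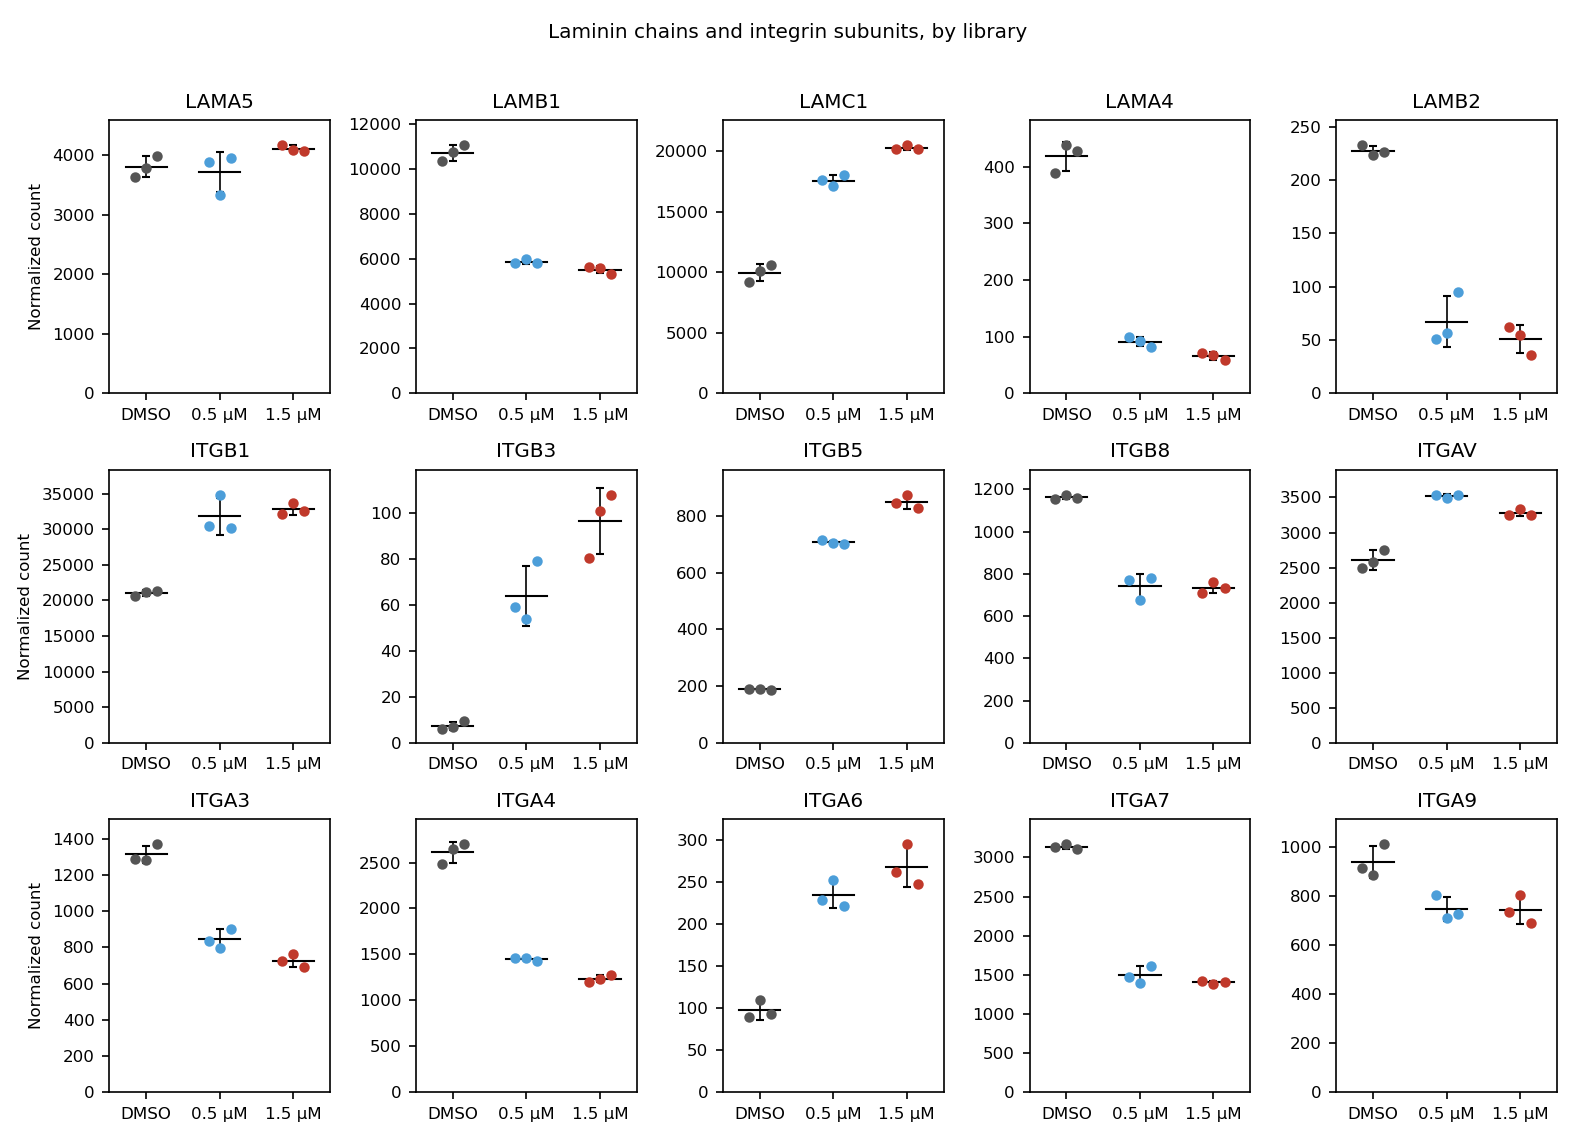
Normalized counts (vertical axes, each from 0) of 5 laminin chains and 10 integrin subunits in DMSO, 0.5 µM and 1.5 µM JQ1; points are libraries, lines the group mean and bars ± 1 SD (n = 3). LAMC1 rises where LAMB1 falls, and ITGB1, ITGB3, ITGB5, ITGAV and ITGA6 rise where ITGA3, ITGA4, ITGA7, ITGA9 and ITGB8 fall.

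The remaining laminin chains that passed were all lower. LAMA4 (ENSG00000112769.14), an alpha chain of vessel and muscle basement membranes, held 389, 438 and 427 normalized counts in DMSO, 98.6, 91.6 and 82.3 at 0.5 µM, and 70.1, 68.3 and 58.5 at 1.5 µM, without overlap. LAMB2 (ENSG00000172037.9), the beta chain of synaptic and kidney laminins, held 233, 224 and 226 in DMSO, 50.8, 56.3 and 94.6 at 0.5 µM, and 61.8, 55 and 35.9 at 1.5 µM. Both chains lay far below DMSO at both doses.

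LAMB3, a beta chain of epithelial basement membranes, went from 54.8, 27.2 and 56.4 normalized counts in DMSO to between 3.08 and 7.22 in the JQ1 libraries, a log2 fold change of -3.07 ± 0.5 at 1.5 µM. All JQ1 values of LAMB3 were below the filter of 10 normalized counts, so it was tested only because of the DMSO libraries where it is high. The alpha chain gene LAMA3 was outside the table with at most 0.15 FPKM. LAMC3 (ENSG00000050555.13), a gamma chain of the nervous system, held 1067, 1107 and 1093 in DMSO, 561, 556 and 580 at 0.5 µM, and 530, 528 and 492 at 1.5 µM. LAMA2, the alpha chain of muscle laminin, fell from a mean of 116 to 70.4 and 65.6 normalized counts. Summed over the 10 chains the level per length was 83.4 ± 3.2 FPKM in DMSO (SD, n = 3), 77.2 ± 2.71 at 0.5 µM and 78.5 ± 2.03 at 1.5 µM.

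Of the 15 integrin subunits, 5 were higher and 9 lower at each dose, and 1, ITGAE, did not pass at either. The share higher, 33.3%, was near that of all genes (35.3% and 36.9%). The share lower was 60%, beside 34.7% and 36.2%. Among 5 beta subunits 3 were higher and 2 lower, and among 10 alpha subunits 2 were higher and 7 lower. ITGB1 (ENSG00000150093.14), the beta1 subunit that pairs with most collagen and laminin receptor alpha subunits, had the highest level per length of the 65 genes in DMSO, 94.1 ± 0.487 FPKM (SD, n = 3). It rose from 20577, 21132 and 21349 normalized counts in DMSO to 30392, 34858 and 30142 at 0.5 µM and 32203, 33613 and 32573 at 1.5 µM. All JQ1 libraries were above all DMSO libraries, the dose groups overlapped, and the log2 fold changes were 0.59 ± 0.051 and 0.64 ± 0.051.

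The beta subunits with the largest positive log2 fold changes were those that pair with alphaV to bind vitronectin and fibronectin. ITGB5 (ENSG00000082781.7) held 188, 189 and 187 normalized counts in DMSO, 714, 703 and 702 at 0.5 µM, and 844, 875 and 829 at 1.5 µM. No groups overlapped, and the log2 fold changes were 1.90 ± 0.053 and 2.17 ± 0.053 (SE, limma adjusted p = 1.46e-09 and 2.78e-10). ITGB3 (ENSG00000259207.3) held 6.08, 7 and 9.41 in DMSO, 59.1, 54 and 78.9 at 0.5 µM, and 80.4, 101 and 108 at 1.5 µM. Its mean at 1.5 µM was 12.9 times that in DMSO, and it stayed low per length, at 0.363 FPKM. All 3 DMSO values of ITGB3 were below the filter of 10 normalized counts, so it was tested only because of the JQ1 libraries where it is high.

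ITGAV (ENSG00000138448.7), their alpha subunit, held 2487, 2575 and 2757 normalized counts in DMSO, 3541, 3499 and 3535 at 0.5 µM, and 3247, 3330 and 3257 at 1.5 µM, log2 fold changes of 0.44 ± 0.04 and 0.33 ± 0.04. ITGB8, which also pairs with alphaV and activates latent TGF-beta, fell from 1155, 1175 and 1160 to 769, 674 and 780 and to 708, 761 and 732. The ratio of ITGB5 to ITGB8 in FPKM was 0.604 to 0.903 in DMSO, 3.18 to 4.32 at 0.5 µM and 3.54 to 4.62 at 1.5 µM. The partner ITGB6 was outside the table, with at most 0.16 FPKM. ITGB7, the beta subunit of lymphocytes, fell from a mean of 35.3 to 15.2 and 10.7 normalized counts. ITGB7 shares exonic bases with ZNF740 on the other strand, which had a mean of 3758, so these low counts are uncertain.

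Among the alpha subunits of laminin receptors, ITGA6 rose while ITGA3 and ITGA7 fell. ITGA6 (ENSG00000091409.10) held 89.2, 110 and 93.1 normalized counts in DMSO, 229, 252 and 222 at 0.5 µM, and 262, 295 and 248 at 1.5 µM, with log2 fold changes of 1.26 ± 0.11 and 1.46 ± 0.11. Its hemidesmosomal partner ITGB4 was outside the table with at most 0.16 FPKM. ITGA7 (ENSG00000135424.11), best known from muscle, held 3134, 3169 and 3108 in DMSO, 1476, 1400 and 1618 at 0.5 µM, and 1426, 1382 and 1406 at 1.5 µM. ITGA3 (ENSG00000005884.13) held 1289, 1280 and 1369 in DMSO, 836, 794 and 903 at 0.5 µM, and 724, 766 and 691 at 1.5 µM. Even so, in FPKM ITGA7 at 8.44 and ITGA3 at 3.44 stood above ITGA6 at 0.787 at the higher dose. ITGA7 shares exonic bases with BLOC1S1 on the other strand.

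The collagen receptor subunits ITGA1 and ITGA2 fell by little. ITGA1 went from a mean of 882 normalized counts to 650 and 638, log2 fold changes of -0.44 ± 0.061 and -0.47 ± 0.061, which on FPKM values were -0.25 and -0.14 and did not pass (limma adjusted p = 0.192 and 0.45). ITGA1 shares exonic bases with PELO on the same strand in the annotation at hand. ITGA2 went from 490 to 419 and 385, log2 fold changes of -0.22 ± 0.083 and -0.35 ± 0.083 (SE, limma adjusted p = 0.0344 and 0.00334). Its call at 0.5 µM ended without DMSO replicate 2 or 3 or 0.5 µM replicate 2 or 3 (adjusted p = 0.0588, 0.129, 0.0545 and 0.109) and on FPKM values (0.139).

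ITGA4 (ENSG00000115232.9), a receptor subunit for fibronectin and VCAM1, held 2485, 2652 and 2699 normalized counts in DMSO, 1459, 1458 and 1434 at 0.5 µM, and 1204, 1236 and 1276 at 1.5 µM, with no overlap between the groups. ITGA9, its closest relative, fell from 939 to 749 and 745, log2 fold changes of -0.32 ± 0.076 and -0.33 ± 0.076. The latter did not pass on FPKM values (-0.25, limma adjusted p = 0.11). ITGA2B, the platelet subunit, fell from 80.6 to 52.9 and 49.2. On FPKM values ITGA2B did not pass at 0.5 µM (-0.71, adjusted p = 0.0945). ITGA5, the classical fibronectin receptor subunit, was outside the table with at most 0.07 FPKM. ITGAE, the E-cadherin receptor subunit of mucosal lymphocytes, held 1336 to 1480 normalized counts over the 9 libraries, and shares exonic bases with HASPIN on the other strand, so its reads cannot be assigned with confidence.

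Because beta1 rose and most of its alpha partners fell, their ratios widened. The ratio of ITGB1 to ITGA7 in FPKM was 5.01 to 5.24 in DMSO, 14 to 16.4 at 0.5 µM and 16.1 to 16.9 at 1.5 µM. The ratio of ITGB1 to ITGA3 was 10 to 13, 34.4 to 53.2 and 38.3 to 43.6, and that of ITGB1 to ITGA4 was 8.19 to 9.15, 20.8 to 26.1 and 27.9 to 29.6. With ITGAV the ratio was 13.2 to 15.7 in DMSO, 16.2 to 18.4 at 0.5 µM and 16.8 to 18.1 at 1.5 µM. The size of the widening with ITGA3 depends on the measure. In FPKM the ITGA3 mean fell from 8.44 to 3.31 and 3.44. In normalized counts it fell by less, from 1312 to 844 and 727, or 1.55-fold and 1.81-fold. Summed over the 20 integrin-pattern genes, FPKM was 249 ± 1.29 in DMSO (SD, n = 3) and at least 268 in every JQ1 library, with 273 ± 4.9 at 1.5 µM. ITGB1 alone went from a mean of 94.1 to 138 and 140 FPKM, a larger rise than that of the sum. The sum also holds ITGAE (40.3 FPKM in DMSO) and the non-subunits ITGB1BP1 (32.5) and ITGB3BP (23.2). It does not show a rise of integrins at large.

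Of the 5 genes that are not subunits, ITGB1BP1 and ITGB3BP did not pass at either dose, with log2 fold changes of 0.06 and 0.02 and of 0.14 and 0.01. ITGB1BP2, also called melusin and known from striated muscle, fell from 105, 124 and 99.7 normalized counts to 57.1, 68.1 and 67.6 and to 53.6, 72.8 and 56.4. ITGBL1 fell from a mean of 77.9 to 36.7 and 34.8. ITGBL1 shares exonic bases with FGF14 on the other strand, which had a mean of 1983, so its counts are uncertain. The pseudogene ITGB1P1 rose from 49.7, 58.3 and 36.7 to 71.6, 83.3 and 92.4 and to 97.9, 79 and 69.8. Reads of a pseudogene can be split from those of its parent, here ITGB1, so its values are uncertain.

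The direct comparison of the doses asked which genes responded further at 1.5 µM. Of the 65 genes, 15 passed, 13 lower and 2 higher at the higher dose, beside 12.7% of all tested genes, 8.09% lower and 4.66% higher. The share lower was 20.0%. The 13 were COL16A1, COL24A1, COL28A1, COL2A1, COL8A2, COL9A2, COL9A3, LAMA4, ITGA3, ITGA4, LOXL1, LOXL2 and LOXL3. COL28A1 had the largest difference among them, -0.89 ± 0.12 (SE, limma adjusted p = 0.00158), followed by COL9A3 (-0.48 ± 0.14) and LAMA4 (-0.46 ± 0.12). LAMC1 and ITGB5 were higher, by 0.21 ± 0.047 and 0.27 ± 0.053. All but COL9A2 were called in the same direction at both doses against DMSO. Without the 3 H19-high libraries, which leaves 2 libraries at 0.5 µM and 1 at 1.5 µM, limma called 0 of the 65 between the doses. At an unadjusted p under 0.05, 19 were then lower and 2 higher, where with all 9 libraries 19 were lower and 6 higher. Of all 17514 genes, that fit called 48 lower and 0 higher, with 2681 at an unadjusted p under 0.05, so 0 of 65 is near what all genes show. The lone 1.5 µM library is assumed there to vary like the other groups.

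COL3A1 (ENSG00000168542.8), a fibrillar collagen of soft tissues and vessels, did not follow the treatment groups. It held 81.1, 96.4 and 95 normalized counts in DMSO, 25.9, 25.8 and 1147 at 0.5 µM, and 1107, 1022 and 31.8 at 1.5 µM. The 3 high values are those of the H19-high libraries, and the 3 other JQ1 libraries lay below DMSO. H19 itself held 71, 63.8 and 82.8 in DMSO, 1.04, 8.22 and 1563 at 0.5 µM, and 2071, 1476 and 2.05 at 1.5 µM, and the glucose transporter SLC2A3 reached 489, 479 and 390 in the same 3 libraries against at most 3.52 elsewhere. Over all 9 libraries COL3A1 did not pass (log2 fold change 0.04 ± 1.6 at 0.5 µM and 1.87 ± 1.6 at 1.5 µM; limma adjusted p = 0.984 and 0.299). Without the H19-high libraries its log2 fold changes were -1.77 and -1.48, and without 1.5 µM replicate 3 alone 3.54 at 1.5 µM. Leaving these libraries out removes the high or the low values and so fixes the direction, and the first of these fits has 1 library at 1.5 µM, so no test is drawn from them.

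The lowest COL3A1 value of the H19-high libraries was 31.2 times the highest of the other 3 JQ1 libraries, both as normalized count + 1. By the same measure LAMA1, the alpha chain of the embryonic laminin, was the most similar of the other 64 genes, with a ratio of 3.24. LAMA1 held 57.5, 55.7 and 48.8 in the H19-high libraries, 13.5, 5.87 and 14.4 in the other JQ1 libraries and 13.2, 8.55 and 19.8 in DMSO. COL5A2, COL4A5, COL1A1 and COL12A1 followed with ratios of 1.08, 1.05, 1.05 and 1.04, which is close to no separation. In all, 8 of the 65 genes (12.3%) were higher in each H19-high library than in each other JQ1 library, and 0 were lower. Of all tested genes, 3.8% were higher and 3.5% lower. The 8 include COL3A1 itself, for which the comparison was made. Apart from COL3A1 and LAMA1, their ratios were 1.08 or less. LAMB3, below the filter of 10 normalized counts in these libraries, counted at 3.55 against 3.52, and COL6A2 at 75.5 against 73.9. The share therefore does not show a link of the matrix genes at large to these libraries. COL1A2, the fibrillar collagen most often read beside COL3A1, held 1873, 1680 and 1593 in the H19-high libraries and 1662, 1540 and 1344 in the others.

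Markers of mesenchymal cells moved with COL3A1 in part. Of the 8 markers on the list, LUM (4, 2.92 and 2.91 FPKM in the H19-high libraries against 0.02 to 0.51 in the other 6) and DCN (0.41, 0.41 and 0.40 against at most 0.02) followed the same libraries. Both encode small proteoglycans that bind collagen fibrils. PDGFRA, PDGFRB, FAP and POSTN were at 0.36 FPKM or less in every library, and THY1 (48.95 to 67.32 FPKM) and VIM (4.64 to 10.67 FPKM) did not separate these libraries from the rest. The summed level of the list was 67.9 to 70 FPKM in DMSO, 57.1 to 72.2 at 0.5 µM and 54.1 to 61.1 at 1.5 µM. Among the other listed matrix genes, TIMP3, a protease inhibitor, held 92.4, 120 and 111 normalized counts in the H19-high libraries against 0 to 4.1 in the other 6, and FBN2, a fibrillin, 130, 131 and 98.5 against 5.13 to 29.2. FBLN1 (149, 150 and 125 against 35.9 to 111) and SDC4 (113, 129 and 127 against 33.9 to 77.1) were also above all the others there. These listed genes were named for this pattern after their values were seen, and the listed genes without it were not counted. Of all tested genes, 3.8% were higher in each H19-high library than in each other JQ1 library. The named genes therefore show no link of the lists at large to these libraries. The part of these genes in the COL3A1 and LAMA1 values was not tested.

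**Figure D4:**
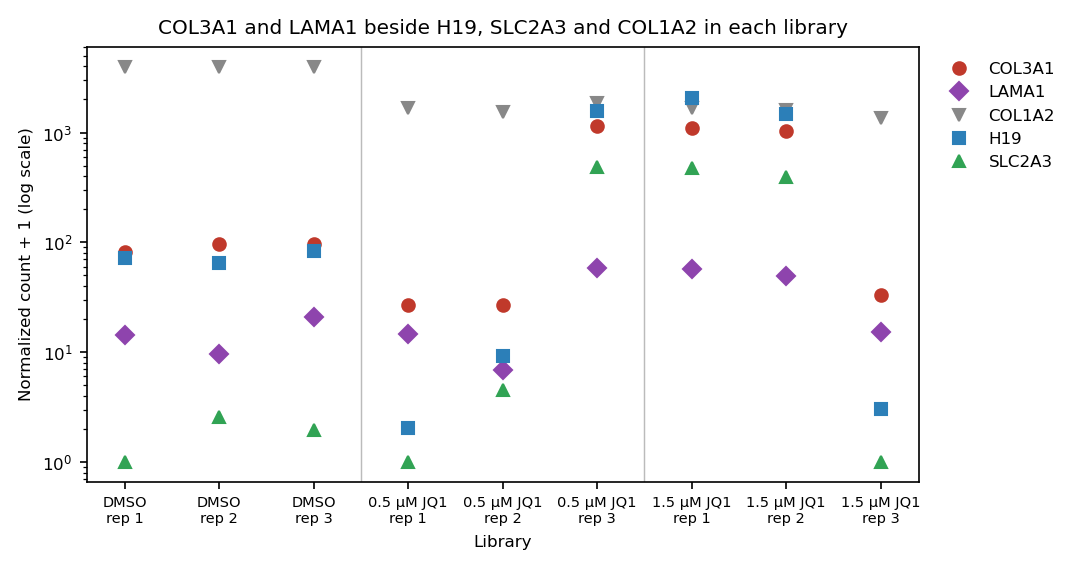
Normalized count + 1 on a log axis for COL3A1, LAMA1, COL1A2, H19 and SLC2A3 in each of the 9 libraries, with the groups parted by grey lines. COL3A1 is at 1022 or more in 0.5 µM replicate 3 and 1.5 µM replicates 1 and 2, where H19 and SLC2A3 are also high, and at 96.4 or less in the other 6 libraries.

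With the H19-high libraries left out, 9 of the 65 genes were higher and 40 lower at 0.5 µM, close to the 10 and 41 with them. Of all 17514 tested genes, 5589 were higher and 5522 lower in that fit, beside 6174 and 6081 with all libraries. Calls thus stayed numerous among all genes too. At 1.5 µM a single library is left, so the number of calls there is not compared. At 0.5 µM, COL18A1 (log2 fold change -0.45), COL7A1 (0.35) and ITGA2 (-0.18) were no longer called (limma adjusted p = 0.0791, 0.0773 and 0.139). At 1.5 µM the same held for COL7A1 (0.29), COL9A2 (-0.18), ITGB1P1 (0.55), ITGBL1 (-0.84) and LAMA2 (-0.69), with adjusted p = 0.23, 0.178, 0.166, 0.0616 and 0.0523. All kept their sign, and that fit has 2 libraries at 0.5 µM and 1 at 1.5 µM.

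A further 28 genes or gene records match the same symbol patterns in the authors' FPKM table of 57820 genes and lie outside the table of normalized counts. They are 14 collagens, 12 integrins, among them a second record named ITGB3, and 2 laminins. The highest level any of them reached in any library was 0.40 FPKM, and 1 of them, ITGA8, is listed at 0 in all 9. The lysyl oxidases were all inside.

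Genes that process collagen chains moved in both directions. Of 26 tested of the 27 listed, 6 were higher and 16 lower at 0.5 µM, and 7 higher and 18 lower at 1.5 µM, with a median log2 fold change of -0.54 at each dose. That is 23.1% and 26.9% higher and 61.5% and 69.2% lower, beside 35.3% and 36.9% higher and 34.7% and 36.2% lower of all tested genes, the shares against which the lists below are also set. FKBP10, a chaperone of the endoplasmic reticulum needed for collagen crosslinking, fell from a mean of 4285 normalized counts to 1196 and 906. ADAMTS14, a procollagen N-proteinase, fell from 548 to 126 and 84.7. TLL2, a tolloid-like metalloproteinase, rose from 228 to 555 and 658, and LEPRE1, a collagen prolyl hydroxylase, from 2524 to 4224 and 4659. The other listed LEPRE and P4HA genes moved in both directions. LEPREL2 fell from 4490 to 2914 and 2737, LEPREL4 from 1946 to 1346 and 1147, and P4HA2 from 1787 to 1456 and 1377. P4HA3 rose from a low 2.37 to 25.2 and 35.8. P4HA1, with means of 985, 1077 and 1166, passed as higher at 1.5 µM only, and LEPREL1 passed at neither dose.

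Of 15 tested partners of the basement membrane, 9 were higher and 4 lower at 0.5 µM, and 9 higher and 3 lower at 1.5 µM, with medians of 0.19 and 0.22. The share higher was 60% at each dose, beside 35.3% and 36.9% of all genes, and the share lower 26.7% and 20%, beside 34.7% and 36.2%. FREM2, a matrix protein of the Fraser complex, rose from a mean of 808 normalized counts to 4038 and 5722, while its relative FREM1 fell from 211 to 58.4 and 40.5. DAG1, which encodes the laminin receptor dystroglycan, rose from 5037 to 9044 and 9967. SMOC1 fell from 1469 to 786 and 610. The difference between these partners and the laminin and collagen chains was not tested.

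Among 23 tested genes for other integrin ligands and fibrous matrix, 7 were higher and 12 lower at 0.5 µM and 6 higher and 12 lower at 1.5 µM. The share higher, 30.4% and 26.1%, was below that of all genes (35.3% and 36.9%), and the share lower was 52.2% at each dose, beside 34.7% and 36.2%. TNC, or tenascin C, fell from a mean of 3105 normalized counts to 619 and 519, and THBS1, a thrombospondin, from 1160 to 321 and 310. FBN1, the fibrillin of microfibrils, rose from 115 to 490 and 642. Of 12 other collagen and laminin receptors, 3 were higher and 4 lower at 0.5 µM and 3 higher and 5 lower at 1.5 µM. In all 58.3% and 66.7% of them passed, less than the 70.0% and 73.1% of all genes. The collagen receptor kinase DDR1 fell from 2149 to 617 and 401, CD36 from 630 to 160 and 136, and the syndecan SDC2 rose from 259 to 970 and 1102.

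Inside the cell, the integrin adhesion complex had 10 of 30 tested genes higher and 14 lower at 0.5 µM, and 10 higher and 16 lower at 1.5 µM. The share higher, 33.3% at each dose, is near that of all genes (35.3% and 36.9%), and the share lower was 46.7% and 53.3%, beside 34.7% and 36.2%. TLN2, a talin that links integrin tails to actin, rose from a mean of 880 normalized counts to 3275 and 4668. TNS3, a tensin of mature adhesions, fell from 1837 to 230 and 159, and TGFB1I1, a relative of paxillin, from 211 to 45.2 and 32.5. Of 15 tested matrix proteases and inhibitors, 4 were higher and 3 lower at 0.5 µM, and 5 were higher and 5 lower at 1.5 µM. These shares, 26.7% and 33.3% higher and 20% and 33.3% lower, are below those of all genes (35.3% and 36.9% higher, 34.7% and 36.2% lower). RECK, a membrane inhibitor of metalloproteinases, rose from 902 to 1525 and 1599. MMP10, a stromelysin, fell from 291 to 82.1 and 51.2, and the inhibitor TIMP1 from 430 to 179 and 174.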

How the data were processed

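Total RNA of COR-L279 cells was sequenced in 9 libraries, 3 each of DMSO, 0.5 µM and 1.5 µM JQ1 at 24 h, from stranded libraries per the labels' protocols. The submitters' processing notes name cutadapt, STAR, RSEM and hg19, and no versions, settings or annotation were found in these sources. For 17518 genes the authors deposited normalized counts, which are a signal: read counts divided by a size factor. Dividing by 1 step per library turned 100% of the values into whole reads within 0.001, which gave 60721187 to 88482001 reads per library. The authors also deposited FPKM values for 57820 genes, rounded to 2 decimals, which served for levels per length and as an alternative.

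limma 3.58.1 in R 4.3.3 was fitted with a mean-variance trend to log2(normalized count + 1) of all 9 libraries. Genes needed at least 10 normalized counts in at least 3 libraries (17514 kept, all 65 matrix genes among them). Tests were two-sided and their p-values adjusted over all genes of a comparison (Benjamini-Hochberg, threshold 0.05). The log2(value + 1) scale understates the changes of low genes, and without a spike-in each change is relative to most genes. edgeR 4.0.16 on the recovered reads called 6190 genes higher and 6050 lower at 0.5 µM, 6478 and 6419 at 1.5 µM, and 840 and 1443 between the doses. The test was checked on simulated data in which few genes changed, and only at 1.5 µM. That check does not cover data where most genes change, as here, or the H19 split.

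The genes and lists were chosen with earlier results of these data known, so no list was tested and no p was adjusted over a list. Described by library were, in each family, up to 4 genes per direction with the largest called changes at 1.5 µM (mean of at least 50), the 3 with the highest FPKM in DMSO, up to 3 called between the doses, COL3A1 and chain partners. Listed genes outside the families were the most changed ones with a mean of at least 50. DAG1, LEPRE1, LEPREL1, LEPREL2, LEPREL4, P4HA1, P4HA2, P4HA3, DST, LUM, DCN, TIMP3, FBN2, FBLN1 and SDC4 were named after their values were seen. Alternatives were other pseudocounts (0.1 and 5), other filters, TMM and upper-quartile scaling, edgeR, DESeq2 1.42.0, FPKM on a log2 scale with 0.1 added (minimum 0.5 in 3 libraries), fits to only the 6 libraries of a comparison, the replicate number as a block, omission of each library in turn, and, added after seeing the data, omission of the 3 H19-high libraries. Promoters were matched by symbol to RefSeq, taking the first start listed. Exonic overlaps came from GENCODE release 29, which all 65 genes matched by identifier. Of these, 35 share exonic bases with another gene, and 19 with a gene that has normalized counts. Not all of these overlaps are named above. The values of 1 laminin gene are not reported here; it is kept in the counts, medians and sums.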

Additional observations from a re-analysis of the deposited data

How the results depend on the processing

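Of the genes called, 44 of 51 at 0.5 µM and 44 of 52 at 1.5 µM kept their call under all alternatives that tested them. The alternatives leave only 1 or 2 libraries in some groups, FPKM values tested 52 of the 65 genes and 21 of 30 collagens, and the cause of a lost call was not tested. None of the 15 calls between the doses held under every alternative.

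The counts moved as follows. On FPKM values, 6 genes were called higher at 0.5 µM (10 by the normalized counts), collagens called higher numbered 0 at 0.5 µM (1 at an unadjusted p under 0.05, limma) and 1 at 1.5 µM (3 by the normalized counts at each dose), and between the doses 0 were higher (1 unadjusted) and 4 lower. In the fit to the 6 libraries compared, 7 were lower between the doses and 3 laminins were higher at 1.5 µM. Without the H19-high libraries, an alternative chosen after seeing the data, 0 were higher and 0 lower between the doses (limma; 2 and 19 unadjusted). Leaving out 1 library at a time gave 0 to 3 higher and 8 to 13 lower between the doses, with the lowest of both without 1.5 µM replicate 2, and 1 to 2 laminins higher at 1.5 µM, 2 of them without 0.5 µM replicate 2. The separation of COL3A1 between H19-high and other JQ1 libraries, 4.96 as a log2 ratio, was 4.80 with a pseudocount of 5 and 3.57 on FPKM values.

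The sign of the log2 fold change differed for these genes, of which COL7A1 and, between the doses, ITGA3 (-0.21) passed the test on normalized counts. On FPKM values COL7A1 had -0.011 and -0.090 at 0.5 and 1.5 µM, COL3A1 -0.057 at 0.5 µM, ITGB1BP1 -0.054, ITGB3BP -0.057 and LAMA5 -0.245 at 1.5 µM, and ITGA3 0.063 between the doses. Under upper-quartile scaling COL3A1 had -0.016 at 0.5 µM, and COL4A4 -0.013, COL4A5 -0.025, ITGB1BP1 -0.031 and ITGB3BP -0.042 at 1.5 µM. Without the H19-high libraries COL3A1 had -1.77 and -1.48, COL4A4 -0.005 at 1.5 µM, COL4A5 -0.033 and -0.192, COL6A1 0.020 at 0.5 µM, ITGB3BP -0.005 at 1.5 µM and LAMA1 -0.501 at 0.5 µM. With 1 library left out at a time, the range at 0.5 µM was -1.77 to 0.941 for COL3A1, -0.150 to 0.059 for COL4A4, -0.033 to 0.237 for COL4A5, -0.057 to 0.020 for COL6A1, -0.501 to 1.04 for LAMA1 and -0.079 to 0.043 for LAMA5. At 1.5 µM it was -0.016 to 0.102 for COL4A4, -0.062 to 0.133 for COL4A5, -0.024 to 0.055 for ITGB1BP1 and -0.012 to 0.022 for ITGB3BP. The low ends of COL3A1, COL4A5 and LAMA1 at 0.5 µM came without 0.5 µM replicate 3.

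Same-numbered libraries deviated together with correlations of only -0.385 to 0.131. The lowest was that of replicate 3 at 0.5 µM with replicate 3 at 1.5 µM, of which only the former is H19-high. Replicate 3 at 0.5 µM reached 0.253 and 0.226 with the H19-high replicates 1 and 2 of 1.5 µM. Because these correlations carry the H19 split, they cannot tell whether the replicate numbers pair the samples. With the replicate block 10 genes were higher and 40 lower at 0.5 µM, 10 higher and 41 lower at 1.5 µM, and 2 higher and 10 lower between the doses. The calls of ITGA2 at 0.5 µM, COL4A2 at 1.5 µM and COL8A2, COL9A3 and ITGA3 between the doses were lost there.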
